A study of Mus musculus with 8 samples.

Results

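Expression of the colony-stimulating factor (CSF) receptor genes was described here in flow-sorted blood monocytes (MC) of control and diabetic mice. The genes were the 8 symbols Csf1r, Csf2ra, Csf2rb, Csf2rb2, Csf3r, Flt3, Kit and Il3ra, chosen by name, and all 8 were among the 16486 entries of the deposited expression table. MCs were sorted as CD11b+Ly6G- cells with high or low Ly6C (Ly6C-high and Ly6C-low MCs) from male mice on normal chow, killed at 20 to 22 weeks of age. Control (CT) animals were of the C57/BL6 strain. The T1DM group was the same strain after intraperitoneal streptozotocin (STZ), which kills insulin-producing beta cells, at 50 mg/kg per day for 5 days at 8 weeks of age. The T2DM group was db/db, homozygous for a leptin receptor mutation, which become obese and insulin resistant. CT MCs had 2 libraries per subset, and T1DM and T2DM MCs had 1 library per subset, 8 in all. Each library held RNA pooled from 5 mice. Duplicate sequencing of the pools is stated, which means that CT replicates may be technical and p-values measure only the spread between these libraries. The sequencer was a NextSeq 500 for CT MCs and a HiSeq 4000 for both diabetic groups, and its effect and that of diabetes cannot be told apart.

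CSF receptors bind the cytokines that drive the production and survival of myeloid cells. Csf1r encodes the M-CSF receptor, a receptor tyrosine kinase on which MCs and macrophages depend, and Flt3 and Kit encode related kinases of hematopoietic progenitors, dendritic cells and mast cells. Csf3r encodes the G-CSF receptor, known for its part in neutrophil production. Csf2ra and Il3ra encode the ligand-specific alpha chains of the GM-CSF and IL-3 receptors. Csf2rb encodes the beta chain shared by the GM-CSF, IL-3 and IL-5 receptors, and Csf2rb2 a second mouse beta chain that serves IL-3. Kit and Flt3 are grouped with the CSF receptors here although their ligands are stem cell factor and Flt3 ligand.

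The deposited values are log2 expression with no counts, so the depth behind a value is unknown, and levels were compared between libraries and not between genes. The sort was visible in the data. Ly6c2, which encodes the sorted antigen, read 8.56 to 8.72 in the 4 Ly6C-high libraries and 2.69 to 4.07 in the 4 Ly6C-low libraries, and Itgam (CD11b) 9.62 to 10.98 over all 8. The summed linear value of 7 classical monocyte genes was 11140 to 27990 in Ly6C-high and 1114 to 1467 in Ly6C-low libraries. That of 8 nonclassical monocyte genes was 690.5 to 1617 and 2025 to 2641. By the limits given below, 5 of these 8 were called lower in Ly6C-high MCs over the 8 libraries (6.76% of all genes). In CT MCs 2 were (1.43%). Cx3cr1 went the other way in CT MCs, at 8.59 and 8.61 in Ly6C-high and 7.76 and 7.78 in Ly6C-low libraries. Nr4a1 read 8.11 and 8.08 beside 7.80 and 8.02. Ly6g is not among the entries. CT replicates of a subset differed by at most 0.359 (Ly6C-high) and 0.344 (Ly6C-low) for 95% of genes between log2 7 and 11. For genes between 0 and 4, where most Kit and Il3ra values lie, these limits were 1.71 and 1.5. In bulk libraries, fewer cells of a type and less RNA per cell cannot be told apart.

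The sequence upstream of the start site is shown for the 3 members that were called higher in Ly6C-high MCs over the mouse groups, and for Kit, which lay the other way. Bases are from NCBI RefSeq (GRCm38.p6), 5′ to 3′ on the gene's strand, in lower case. Capitals mark letters of the motifs GAGGAA (the core bound by the ETS factor PU.1) and TTNCNNAA (a C/EBP site), searched on both strands of the 250 bases before each start. For Csf3r and Kit the stretch ends where the GENCODE gene begins. The last 11 bases of the Csf2ra stretch lie inside the GENCODE gene. The first match of GAGGAA in Csf2ra borders directly on the second. The second match lies within these 11 bases, and the first reaches into them. The stretches lie at chr4:126024409-126024549 (Csf3r, + strand), chr19:61228419-61228668 (Csf2ra, - strand), chr15:78305722-78305971 (Csf2rb2, - strand) and chr5:75574737-75574915 (Kit, + strand).
Csf3r: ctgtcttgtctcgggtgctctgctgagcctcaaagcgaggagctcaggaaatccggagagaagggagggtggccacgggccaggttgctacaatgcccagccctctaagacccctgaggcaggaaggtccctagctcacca
Csf2ra: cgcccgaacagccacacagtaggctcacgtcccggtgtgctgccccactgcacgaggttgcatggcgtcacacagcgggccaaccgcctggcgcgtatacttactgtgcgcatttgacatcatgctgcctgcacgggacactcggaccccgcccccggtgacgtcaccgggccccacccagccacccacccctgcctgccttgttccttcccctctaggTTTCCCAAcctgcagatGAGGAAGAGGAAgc
Csf2rb2: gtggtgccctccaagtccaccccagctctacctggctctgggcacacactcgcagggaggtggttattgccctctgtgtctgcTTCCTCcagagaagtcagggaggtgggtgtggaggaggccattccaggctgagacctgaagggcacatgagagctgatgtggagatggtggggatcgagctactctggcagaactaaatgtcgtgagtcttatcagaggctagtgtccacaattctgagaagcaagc
Kit: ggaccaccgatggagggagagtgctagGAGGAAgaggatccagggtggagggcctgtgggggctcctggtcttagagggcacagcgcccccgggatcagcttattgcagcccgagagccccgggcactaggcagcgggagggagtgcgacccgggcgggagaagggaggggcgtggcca

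GAGGAA was found in the windows of Csf3r (-86 to -81 from the start, past the stretch shown), Csf2ra (-14 to -9 and -8 to -3), Csf2rb2 (-167 to -162, on the reverse strand) and Kit (-223 to -218). These letters occur in 23.3% of 32817 mouse promoter windows of the same length. TTNCNNAA was found in Csf2ra (-31 to -24) and in Il3ra (-134 to -127), and occurs in 36.8% of windows. The letters TGTGGT of RUNX factors (14% of windows) and the letters AGATAA known from GATA factors (9.99% of windows) had no match in Csf3r, Csf2ra, Csf2rb2, Kit, Flt3 or Il3ra. The genes called higher and the gene that lay the other way thus held the same PU.1 letters in this window. A match of letters is not a measured binding site.

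Expression of 7 of the 8 receptor genes was higher in Ly6C-high than in Ly6C-low MCs on average, and that of Kit was lower. Calls required an adjusted p under 0.01 together with an absolute log2FC above 1, in limma with Benjamini-Hochberg adjustment over 16486 genes. In the 4 CT libraries 1 of 8 members passed, Csf3r, beside 3.52% of all genes (2.1% higher in Ly6C-high MCs). Over the 8 libraries with mouse group as covariate, 3 of 8 passed, Csf3r, Csf2ra and Csf2rb2, all higher in Ly6C-high MCs, beside 12.1% of all genes (5.37% higher). At an adjusted p under 0.01 with any fold, 5 of 8 were higher over the 8 libraries, since Csf1r and Csf2rb joined with smaller differences, beside 11.4% of genes. Neither passed with quantile normalization (Csf1r log2FC 0.30, limma adjusted p = 0.0596, and Csf2rb 0.31, limma adjusted p = 0.0572) or without the variance trend (limma adjusted p = 0.0133 and 0.0188). The median log2FC of the 8 members was 0.99 in CT MCs and 0.86 over the 8 libraries, and that of all genes was -0.09 and -0.08. Sums of linear values were higher in all Ly6C-high (1020068 to 1090019) than in all Ly6C-low libraries (838696 to 878313). A rescaling to equal sums would lower each log2FC, and those of Csf2ra and Csf2rb2 lie near the limit of 1. It was not run. Median values were higher in Ly6C-low libraries, and centring on them shifted each log2FC over the 8 libraries by 0.115, Csf3r to 1.93 for example. Quantile normalization moved it to 1.53 and left all 8 directions as they were. Among the 4 diabetic libraries alone, limma called 0 of 16486 genes, with 4483 at an unadjusted p under 0.05.

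**Figure D1:**
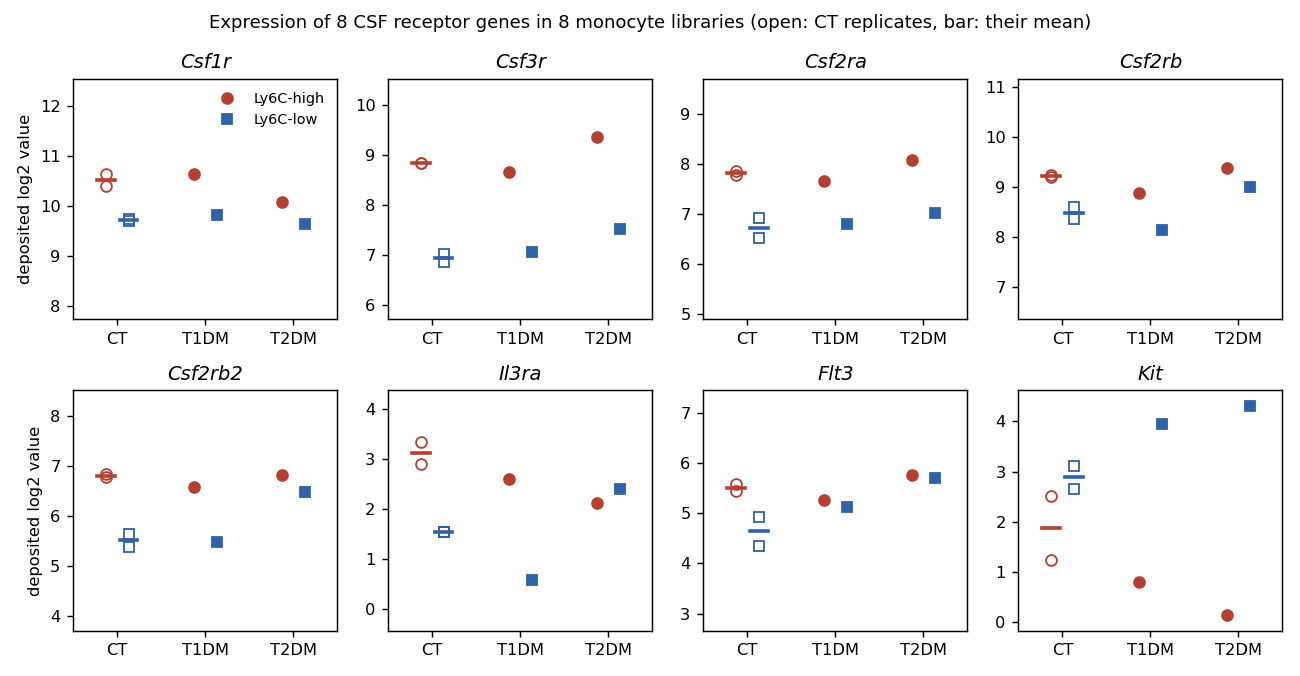
Deposited log2 values (y axis) of the 8 receptor genes in the 8 libraries, by mouse group (x axis), with Ly6C-high MCs as circles and Ly6C-low MCs as squares; open symbols are the 2 CT replicates, the short bar is their mean, and every panel spans the same log2 range. Csf3r is separated by 1.15 between the lowest Ly6C-high and the highest Ly6C-low library, and Kit is arranged the other way round.

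Csf3r, the G-CSF receptor gene, had the largest subset difference among the members that were called. It read 8.84, 8.83, 8.66 and 9.36 in CT replicates 1 and 2, T1DM and T2DM Ly6C-high MCs. In Ly6C-low MCs the values were 7.01, 6.86, 7.05 and 7.51 in the same order. The subsets did not overlap, and the T2DM library was the highest of each subset. The log2FC was 1.90 ± 0.07 (SE, limma adjusted p = 0.00416) in CT MCs and 1.81 ± 0.09 (limma adjusted p = 2.32e-06) over the 8 libraries, a 3.52-fold difference. Within the diabetic libraries it was 1.73 ± 0.14 (limma adjusted p = 0.0426), and in CT MCs it was 1.83 to 1.97 when any 1 CT library was left out (limma adjusted p 0.0633 to 0.0847), fits in which limma called 0 of 16486 genes. Csf3r lies at chr4:126024550-126044440 (GRCm38, GENCODE M21, + strand). Of the 31-base sequences in its transcripts, 19.9% also occur in the processed pseudogene AC105061.2, so reads may be divided between them.

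Csf1r, the M-CSF receptor gene, was higher in Ly6C-high MCs by less than 2-fold. It read 10.41, 10.65, 10.64 and 10.09 in CT replicates 1 and 2, T1DM and T2DM Ly6C-high MCs, and 9.70, 9.75, 9.83 and 9.64 in Ly6C-low MCs. The subsets did not overlap, but the T2DM Ly6C-high library lay only 0.26 above the highest Ly6C-low library. The log2FC was 0.80 ± 0.09 (SE, limma adjusted p = 0.0183) in CT MCs and 0.72 ± 0.09 (limma adjusted p = 0.000409) over the 8 libraries, a 1.64-fold difference. Quantile normalization reduced the second value to 0.30. Of the 31-base sequences in its transcripts, 14.6% also occur in Hmgxb3, a neighbour on the opposite strand. Hmgxb3 read 4.39 to 5.30 over the 8 libraries.

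Csf2ra, the alpha chain gene of the GM-CSF receptor, read 7.77, 7.85, 7.65 and 8.07 in CT replicates 1 and 2, T1DM and T2DM Ly6C-high MCs. In Ly6C-low MCs it read 6.91, 6.51, 6.78 and 7.02 in the same order. The lowest Ly6C-high library was 0.63 above the highest Ly6C-low library. The log2FC was 1.10 ± 0.16 (SE, limma adjusted p = 0.0271) in CT MCs and 1.03 ± 0.11 (limma adjusted p = 0.000148) over the 8 libraries, a 2.04-fold difference. This value lies near the limit of 2-fold, so the call was lost when CT Ly6C-high replicate 2 or CT Ly6C-low replicate 2 was left out (log2FC 0.998 and 0.94), and with quantile normalization (0.78). Csf2ra lies at chr19:61223957-61228429 (- strand), and 0.443% of its 31-base sequences occur in another gene.

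The 2 beta chain genes lie on chromosome 15 in opposite directions, Csf2rb2 at chr15:78282507-78305721 (- strand) and Csf2rb at chr15:78325752-78353847 (+ strand), with 20030 bases between them. They are close copies, and 28.6% of the 31-base sequences of Csf2rb2 transcripts and 18.8% of those of Csf2rb occur in the other gene, so the division of reads between them is uncertain. Csf2rb, the shared beta chain, read 9.24, 9.20, 8.88 and 9.38 in CT replicates 1 and 2, T1DM and T2DM Ly6C-high MCs and 8.61, 8.36, 8.15 and 8.999 in Ly6C-low MCs. Csf2rb2 read 6.83, 6.77, 6.58 and 6.82 in the Ly6C-high and 5.64, 5.39, 5.48 and 6.47 in the Ly6C-low subset. The T2DM Ly6C-low library was the highest of its subset for both genes and, for Csf2rb, lay above the T1DM Ly6C-high library, while the subsets of Csf2rb2 did not overlap. In CT MCs the log2FC was 0.73 ± 0.10 (SE, limma adjusted p = 0.0228) for Csf2rb and 1.29 ± 0.12 (limma adjusted p = 0.0126) for Csf2rb2. Over the 8 libraries it was 0.64 ± 0.09 (limma adjusted p = 0.000912) and 1.01 ± 0.17 (limma adjusted p = 0.0018). The Csf2rb2 value lies at the limit. Its call was lost without CT Ly6C-high replicate 1 or 2, CT Ly6C-low replicate 2 or either T1DM library (log2FC 0.90 to 0.97). The fits without either T1DM library are not separate checks, since the other then has no counterpart in its mouse group. The Csf2rb2 call was also lost with quantile normalization (0.84), with 1 added on the linear scale (0.993) and without the variance trend (limma adjusted p = 0.0155). Within the diabetic libraries it was 0.73 (limma adjusted p = 0.177).

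Il3ra, the IL-3-specific alpha chain gene, read 3.34, 2.89, 2.59 and 2.12 in CT replicates 1 and 2, T1DM and T2DM Ly6C-high MCs and 1.54, 1.54, 0.59 and 2.39 in Ly6C-low MCs. CT and T1DM MCs were higher in the Ly6C-high subset, and T2DM MCs were lower by 0.27. The log2FC was 1.57 ± 0.26 (SE, limma adjusted p = 0.0345) in CT MCs and 1.22 ± 0.39 (limma adjusted p = 0.0417) over the 8 libraries, which did not pass 0.01. Without the T2DM libraries it was 1.71 (limma adjusted p = 0.0056). Leaving out either T2DM library alone is no separate check, since the other then has no counterpart in its mouse group. Il3ra lies at chr14:14346275-14356011 (+ strand).

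Flt3, the receptor gene for Flt3 ligand, read 5.44, 5.58, 5.26 and 5.76 in CT replicates 1 and 2, T1DM and T2DM Ly6C-high MCs and 4.93, 4.35, 5.13 and 5.71 in Ly6C-low MCs. CT libraries were separated by subset, but both diabetic Ly6C-low libraries lay within 0.13 of their Ly6C-high counterpart. The log2FC was 0.87 ± 0.24 (SE, limma adjusted p = 0.0921) in CT MCs and 0.48 ± 0.20 (limma adjusted p = 0.0993) over the 8 libraries, and neither passed the threshold. Within the diabetic libraries it was 0.09 ± 0.17 (limma adjusted p = 0.766). Flt3 lies at chr5:147330741-147400489 (- strand).

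Kit, the stem cell factor receptor gene, was the only member with all Ly6C-low libraries above all Ly6C-high libraries. It read 2.51, 1.23, 0.80 and 0.13 in CT replicates 1 and 2, T1DM and T2DM Ly6C-high MCs and 2.65, 3.12, 3.95 and 4.31 in Ly6C-low MCs. The gap between the highest Ly6C-high and the lowest Ly6C-low library was 0.13, and the CT Ly6C-high replicates differed by 1.28. The log2FC was -1.01 ± 0.55 (SE, limma adjusted p = 0.266) in CT MCs and -2.34 ± 0.57 (limma adjusted p = 0.0128) over the 8 libraries, short of the limit of 0.01. It passed with the low-value filter, which tests fewer genes (limma adjusted p = 0.00798), and without CT Ly6C-high replicate 1 (limma adjusted p = 0.00367). Kit lies at chr5:75574916-75656722 (+ strand), and 0% of its 31-base sequences occur in another gene.

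Separation of the subsets over all 8 libraries was thus seen for Csf1r, Csf2ra, Csf2rb2 and Csf3r with Ly6C-high MCs above, which 16.4% of all genes also showed, and for Kit with Ly6C-low MCs above, which 16.3% showed. For Csf2rb, Flt3 and Il3ra the subsets overlapped, and in each case the T2DM Ly6C-low library lay above at least 1 Ly6C-high library. In T1DM MCs, with 1 library per subset and no test, 4 of 8 members differed by more than 2-fold between subsets, beside 27.9% of genes. These were Csf3r (log2 difference 1.60), Il3ra (2.00), Csf2rb2 (1.11) and Kit (-3.15). In T2DM MCs they were Csf3r (1.85), Csf2ra (1.05) and Kit (-4.17), 3 of 8, beside 29.1% of genes.

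**Figure D2:**
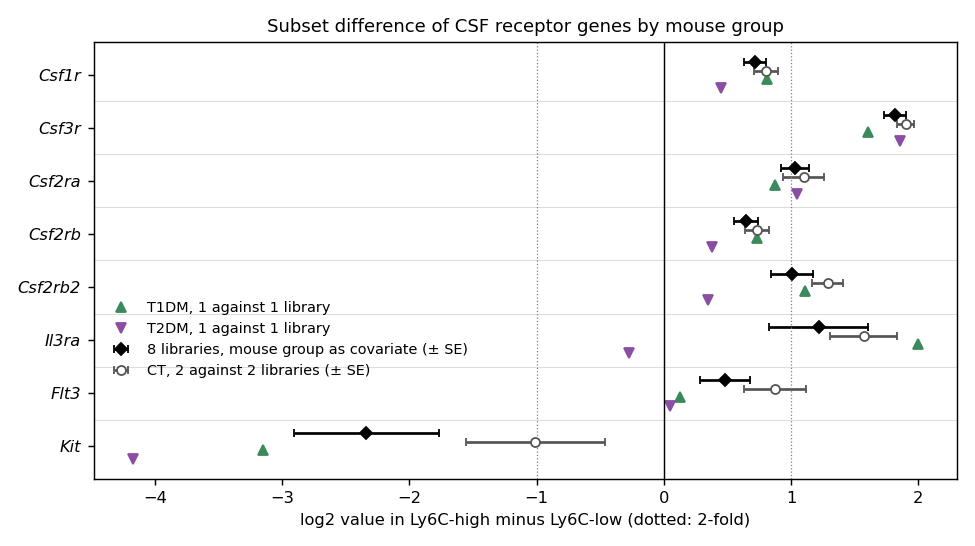
Ly6C-high minus Ly6C-low difference of the log2 value (x axis) for each receptor gene (y axis): diamonds are the limma estimates over 8 libraries and open circles those in CT MCs, both with SE, and triangles are the single-library differences in T1DM (up) and T2DM (down) MCs. All estimates for Csf3r lie between 1.60 and 1.90, while those for Il3ra run from -0.27 to 2.00 and those for Kit from -4.17 to -1.01.

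Markers of other blood cells also differed between the libraries. The 10 B cell genes were all called lower in Ly6C-high MCs over the 8 libraries, beside 6.76% of all genes. Their summed linear value was 75.6 to 168 in Ly6C-high and 2023 to 2683 in Ly6C-low libraries. The 8 NK cell genes were likewise all called lower, with sums of 25.6 to 107 and 155 to 818. The sum of the 9 basophil and mast cell genes, which include cells that carry Kit and the beta chains, was 7.04 to 16.9 in Ly6C-high MCs. In Ly6C-low MCs it was 34.4 and 28.9 in CT replicates 1 and 2, 66.1 in the T1DM and 139 in the T2DM library. Its order over the Ly6C-low groups was also that of Kit, although the CT replicates were in reverse order. In Ly6C-high MCs the sums were 15.5 and 14.1 in the CT, 16.9 in the T1DM and 7.04 in the T2DM library. The T1DM library was thus highest there, while its Kit value (0.80) lay below both CT replicates (2.51 and 1.23). Of the 9 basophil and mast cell genes, 2 were called lower in Ly6C-high MCs (Ms4a2 and Cma1), beside 6.76% of all genes. In the T2DM Ly6C-low library Cpa3 read 3.31, Ms4a2 4.92, Fcer1a 3.18 and Mcpt8 1.86. Against the CT mean, 7 of the 9 genes were past 2-fold higher in this library, beside 5.09% of all genes. Past 2-fold lower was 1, Cma1, beside 5.68% of all genes. Cma1 read 1.83 beside 3.19 and 3.11 in CT Ly6C-low MCs. Conventional dendritic cells carry Flt3, and the sum of 9 of their genes was 119 to 223 in Ly6C-low and 53.4 to 138 in Ly6C-high MCs. The diabetic Ly6C-low libraries were highest. The T2DM Ly6C-high library had the lowest sum (53.4) but the highest Flt3 value (5.76) of all 8 libraries. The list was mixed over the 8 libraries. In Ly6C-high MCs 2 genes were called lower (Ccr7 and Zbtb46, beside 6.76% of all genes) and 1 higher (Batf3, log2FC 1.56, beside 5.37%). Cd209a (6.67) was the largest value of the list in the T2DM Ly6C-low library. For 8 myeloid progenitor genes the sums were 54.7 to 68.5 in Ly6C-high and 46.2 to 83.8 in Ly6C-low MCs. The part of these lists in the values and subset differences of the 8 members, Csf1r and Csf2ra included, was not tested.

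Neutrophil genes, which mark cells with abundant G-CSF receptor, had sums of 279 to 983 in Ly6C-high and 30.2 to 103 in Ly6C-low MCs, with T2DM highest in each subset as for Csf3r. In Ly6C-high MCs most of the sum was Cd177 (log2 value 7.98 to 9.07) and, in T2DM, also Lcn2, while Retnlg (-1.55) and Cxcr2 (2.79) were lowest of all 8 libraries in T2DM Ly6C-high MCs. Of 10 listed genes 7 were in the table, and Ly6g, Camp and Stfa2l1 were not. Cd177 was the 1 gene of the list that was called (log2FC 5.89 over the 8 libraries), beside 12.1% of all genes. Cxcr2 was lower in Ly6C-high MCs (-1.49, limma adjusted p = 0.0107), which did not pass. Lcn2 read 8.71 in the T2DM Ly6C-high library and 0.09 to 3.50 in the others. The part of these genes in the values of Csf3r was not tested.

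**Figure D3:**
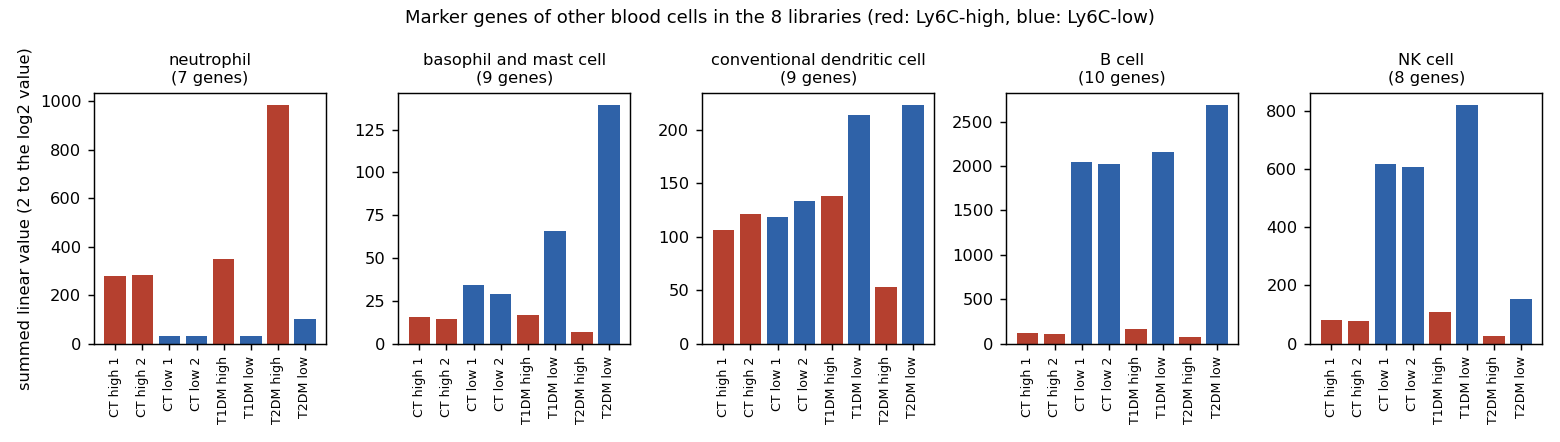
Summed linear values (2 to the power of the log2 value, y axis, from 0) of marker genes of 5 other blood cell types in each of the 8 libraries (x axis), red for Ly6C-high and blue for Ly6C-low MCs. Basophil and mast cell genes reach 139 in the T2DM Ly6C-low library, and neutrophil genes 983 in the T2DM Ly6C-high library.

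Diabetic MCs (T1DM and T2DM together, 2 libraries per subset) were next compared with CT MCs of the same subset. None of the receptor genes was called. Limma called 0 of 8 members and 0 of 16486 genes (0%) in Ly6C-high MCs, where 739 genes (4.48%) had an unadjusted p under 0.05, and 0 and 0 (0%) in Ly6C-low MCs, where 489 genes (2.97%) did. The members among these were Kit in Ly6C-high MCs (log2FC -1.41 ± 0.50 SE, limma adjusted p = 0.999) and Kit (1.25 ± 0.50) and Flt3 (0.78 ± 0.29) in Ly6C-low MCs. These values moved with single libraries. Kit in Ly6C-high MCs was -0.77 without CT Ly6C-high replicate 1 and -2.05 without replicate 2. Leaving out 1 library gave 1.01 to 1.48 for Kit and 0.49 to 1.07 for Flt3 in Ly6C-low MCs, with 0.49 without CT Ly6C-low replicate 2 or the T2DM library. The largest |log2FC| among the other members was 0.76 in Ly6C-high MCs, for Il3ra (-0.76 ± 0.59), and 0.46 in Ly6C-low MCs, for Csf2rb2 (0.46 ± 0.30).

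The difference between subsets was then compared between diabetic and CT mice. For Kit the diabetic and the CT difference were -3.66 and -1.01, apart by -2.65 ± 0.71 (SE, limma interaction, adjusted p = 0.62), 1 of 8 members with an unadjusted p under 0.05. Both diabetic Ly6C-high libraries lay below both CT Ly6C-high libraries, and both diabetic Ly6C-low libraries above both CT Ly6C-low libraries. The other 7 members had interaction terms between -0.78 and -0.14, all with an unadjusted limma p above 0.05. Limma called 0 of 8 members and 0 of 16486 genes (0%), and 1084 genes (6.58%) had an unadjusted p under 0.05.

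With each diabetic model apart there is 1 library against the mean of 2 CT libraries, and no test. In T1DM Ly6C-high MCs 1 of 8 members was past 2-fold, Kit (log2 difference -1.07), beside 10.1% of genes, and in T1DM Ly6C-low MCs again Kit (1.07), beside 8.81% of genes. In T2DM Ly6C-high MCs it was Kit (-1.74), beside 13.8% of genes, with Il3ra (-0.996) just inside 2-fold. In T2DM Ly6C-low MCs 2 of 8 passed, Flt3 (1.07) and Kit (1.43), beside 10.8% of genes, and Csf2rb2 (0.96), Il3ra (0.85), Csf3r (0.57) and Csf2rb (0.51) were next. The T2DM Ly6C-low library was thus above both CT Ly6C-low libraries for 7 members and below both for Csf1r (-0.09).

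Csf3r was 0.52 above the CT mean in T2DM and 0.18 below it in T1DM Ly6C-high MCs, where the CT replicates differed by 0.01. Csf1r was 0.44 below the CT mean in T2DM Ly6C-high MCs and 0.11 above it in T1DM Ly6C-high MCs, where the replicates differed by 0.24. Csf3r and Csf1r thus lay on opposite sides of CT in T2DM Ly6C-high MCs. The log2 value of Csf3r minus that of Csf1r, compared between libraries, was -1.57 and -1.82 in the CT, -1.98 in the T1DM and -0.73 in the T2DM library of this subset. In Ly6C-low MCs it was -2.69 and -2.89 in the CT, -2.78 in the T1DM and -2.13 in the T2DM library. T2DM MCs had the highest value, nearest to 0, in each subset.

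**Figure D4:**
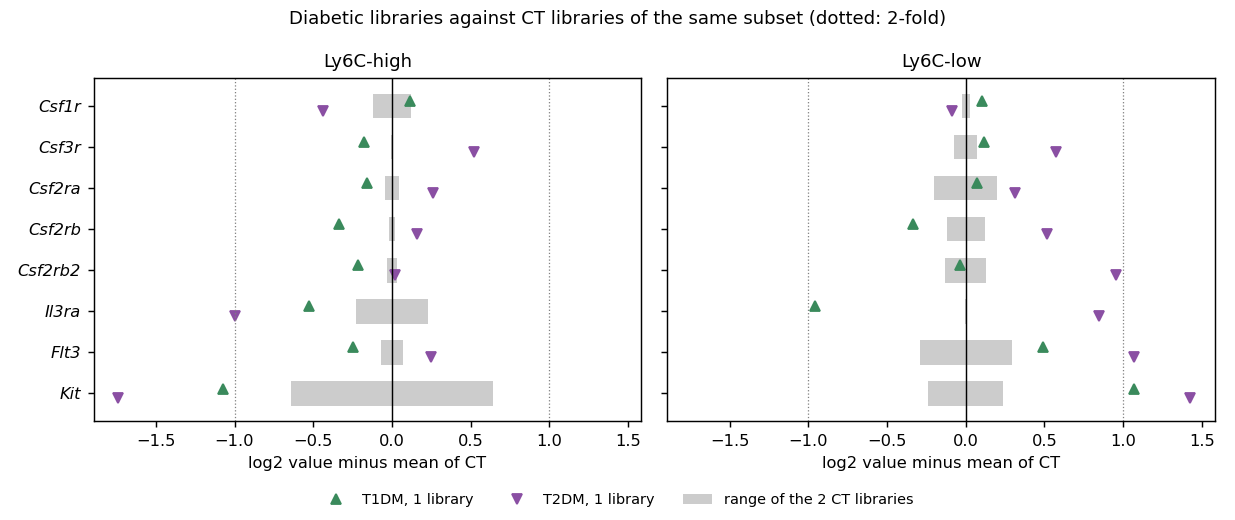
Log2 value of the T1DM (up triangle) and T2DM (down triangle) library relative to the CT mean of 2 libraries (x axis) for each receptor gene (y axis) in Ly6C-high (left) and Ly6C-low (right) MCs; grey bars span the 2 CT libraries and dotted lines mark 2-fold. In Ly6C-low MCs the T2DM values reach 1.07 for Flt3 and 1.43 for Kit, and in Ly6C-high MCs Kit lies at -1.07 and -1.74.

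T2DM and T1DM libraries, which shared a sequencer, were compared without a test. In Ly6C-high MCs 0 of 8 members differed by more than 2-fold, beside 19.3% of genes. The largest differences were for Csf3r (0.70), Kit (-0.66) and Csf1r (-0.55). In Ly6C-low MCs 1 of 8 did, Il3ra (1.80), beside 15.3% of genes, and Csf2rb2 (0.99) and Csf2rb (0.85) followed. The T2DM value was above the T1DM value for 7 of 8 members in Ly6C-low MCs, and below it for Csf1r (-0.19).

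Genes of the same pathway were read from lists made with earlier results of these data known. Of 8 ligand genes only Csf1 and Flt3l were in the table, and neither was called. Csf1 (M-CSF) read 0.13 to 3.15 in Ly6C-high and 2.33 to 4.93 in Ly6C-low MCs, with the T2DM libraries at both ends. Il5ra, the IL-5-specific alpha chain gene, which pairs with Csf2rb, was lower in Ly6C-high MCs by a log2FC of -3.71 ± 0.19 (SE, limma adjusted p = 3.06e-06) over the 8 libraries. It read 1.69 to 2.62 in Ly6C-high and 5.80 to 6.13 in Ly6C-low MCs, opposite to the GM-CSF receptor chains. Il5ra is also expressed by B cells, whose markers moved with it, and their part in its value was not tested.

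Of 20 kinase, STAT and adaptor genes 2 were called over the 8 libraries, 1 in each direction, beside 12.1% of all genes. Tyrobp, which encodes the adaptor DAP12, was higher in Ly6C-high MCs by 1.47 ± 0.07, and Pik3r1, a regulatory subunit of PI3 kinase, was lower by -1.06 ± 0.10. The median log2FC of the list was 0.43. Of 14 inhibitor genes, SOCS and CBL family members among them, 0 were called in CT MCs or over the 8 libraries (3.52% and 12.1% of all genes), with a median of 0.21. Of 14 transcription factor genes known to act on CSF receptor genes, 4 were called higher and 0 lower in each test, beside 2.1% (CT) and 5.37% (8 libraries) of all genes called higher. Cebpa was higher in Ly6C-high MCs by 2.62 ± 0.17 and Cebpd by 2.20 ± 0.16 over the 8 libraries, and both were also called in CT MCs. Spi1, which encodes PU.1, was called in CT MCs (1.06 ± 0.04), and Cebpe over the 8 libraries (2.07 ± 0.47). Cebpe values were low, -2.53 to 1.49, with CT Ly6C-low replicates at -0.83 and -2.53, and in CT MCs it did not pass (limma adjusted p = 0.12). Spi1 over the 8 libraries was 0.98, just under 2-fold.

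For the 6 receptor genes that averaged 3 or more over the libraries, the genes with the most alike profiles over the 8 libraries were sought by the root-mean-square (rms) difference of mean-centred log2 values. When only genes averaging 5 or more were searched, these were Stat5a (rms 0.077), Rnf166 and Lipa for Csf1r. For Csf3r they were Pgd (0.109), Zcchc24 and Anxa1, for Csf2ra Tlr13 (0.0793), Rnf149 and Atp6ap1, and for Csf2rb Rhbdf2 (0.0876), Tmem63a and Lamtor5. For Csf2rb2 they were Ext1 (0.0818), Galnt10 and Cdkn1a, and for Flt3 Alcam (0.144), Sumf1 and Atp6v0a1. Each is a description over 8 libraries that share subset, mouse group and sequencer. Stat5a, which encodes a transcription factor used by several of these receptors, read 5.49 to 6.01 in Ly6C-high and 5.10 to 5.24 in Ly6C-low MCs, with the T2DM library lowest in Ly6C-high MCs as for Csf1r.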

How the data were processed

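Per the labels and the study's methods, the authors pseudoaligned reads with Kallisto 0.45 and obtained gene-level estimates with tximport 1.12.3 (R 3.6.1, build mm10). They deposited log2 expression values for 16486 entries (16485 symbols, 21 entries turned into dates). The scaling between libraries and the filter on low genes are not given in the sources used here. Values ran from -4.05 to 15.64. Linear values summed to 1020068 to 1090019 in Ly6C-high and 838696 to 878313 in Ly6C-low libraries, and no alternative rescaled them to equal sums. Library medians were 3.51 to 3.54 in Ly6C-high and 3.64 to 3.65 in Ly6C-low MCs. Samples of the study beyond these 8 were not analysed here.

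limma 3.58.1 in R 4.3.3 (lmFit, then eBayes with its trend option) was run on the values as deposited, with Benjamini-Hochberg adjustment over all entries, after a test on simulated data. Genes were called at an adjusted p under 0.01 and an absolute log2FC above 1. Comparisons with 1 library on a side are log2 differences without a test. The table has no counts, so no count test was used and no counting error is given. Positions are from GENCODE M21, and RefSeq promoter windows were used for 6 of 8 members. Software for plots was Python 3.11.15 (numpy 2.4.6, pandas 2.3.3, matplotlib 3.10.9).

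The members, gene lists and tests were chosen with earlier results of these data known. Genes named are the members, genes of the pathway and marker lists, and the 3 genes with the most alike profile per member. A gene of these lists is not reported here. The overlapping gene Hmgxb3 and the pseudogene AC105061.2 were named after their shared sequences were counted. Alternatives were a low-value filter (mean log2 value of at least 1), 1 added on the linear scale, quantile normalization, median centring, eBayes without the trend, an adjusted p limit of 0.05, a replicate block, averaged CT replicates, and leaving out each library or diabetic model. The fits within each sequencer were added after the data were seen.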

Additional observations from a re-analysis of the deposited data

Results flagged for a closer look

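Groups hold at most 2 libraries, so libraries were not tested as outliers. The results below are those in which 2 groups differed from CT MCs of the same subset in opposite directions in every library, or in which the difference between subsets had opposite signs in 2 mouse groups.

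Kit lay below CT in both diabetic Ly6C-high libraries (mean log2 difference -1.41) and above it in both diabetic Ly6C-low libraries (1.25), a difference of -2.65 (limma interaction, adjusted p = 0.62). Il3ra was higher in Ly6C-high MCs in CT (1.57) and T1DM mice (2.00) and not in T2DM mice (-0.27). T2DM thus differed from CT by -1.84 and from T1DM by -2.27. The T2DM value ran from -0.27 to 0.10 over the alternatives, so its sign depended on the processing.

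Against CT MCs of the same subset, T1DM and T2DM lay on opposite sides in 7 further cases. The T2DM minus T1DM difference was 1.80 for Il3ra (T1DM -0.96, T2DM 0.85) and 0.85 for Csf2rb (-0.34 and 0.51) in Ly6C-low MCs. It was -0.19 for Csf1r (0.11 and -0.09) in Ly6C-low MCs. In Ly6C-high MCs it was 0.70 for Csf3r (-0.18 and 0.52) and 0.50 for Csf2rb (-0.34 and 0.16). It was also 0.50 for Flt3 (-0.25 and 0.25) and 0.42 for Csf2ra (-0.16 and 0.26). With 1 library per model and subset, none of these differences between models was tested.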

How the results depend on the processing

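The deposited values hold no depth, T1DM and T2DM have 1 library per subset, and the only replicates are 2 CT libraries per subset. In the CT test of the subsets 1 of 8 members was called. The count was 3 with the low-value filter, 2 with median centring, 4 at an adjusted p limit of 0.05, 0 without the trend and 0 to 0 when any CT library was left out. CT replicate numbers showed no shared deviation between subsets (correlation across genes 0.00892), which cannot settle whether the libraries were paired. With the replicate block the CT count was 0 and that over the 8 libraries 3. Over all genes the CT test called 581, 1089 with the filter, and 0 without the trend, with the block or with a library left out. Over the 8 libraries 3 members were called, 4 with the low-value filter (Kit gained), 2 with 1 added on the linear scale, 2 without the trend, 2 with CT replicates averaged, 1 with quantile normalization, 5 at a limit of 0.05, 1 to 4 when a library was left out, 0 in diabetic libraries alone and 1 in CT libraries alone. Csf2rb2 and Csf2ra, with log2FC near 1, were the calls that were lost, and Csf3r kept its call except in the diabetic libraries alone. In the limma tests of the subsets, in CT MCs and over the 8 libraries, the log2FC of all 8 members kept their sign under every alternative run. The untested T2DM difference between subsets had ranges that cross 0 for Csf1r (-0.051 to 0.55) and Csf2rb (-0.069 to 0.48). It also did for Flt3 (-0.12 to 0.15) and Il3ra (-0.27 to 0.10).

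In single-library comparisons, the counts past 2-fold moved as follows. T1DM against CT changed from 1 to 0 in both subsets with 1 added on the linear scale and to between 0 and 1 without a CT library. T2DM against CT in Ly6C-high MCs changed from 1 to 2 with median centring and to between 1 and 2 without a CT library, and in Ly6C-low MCs from 2 to between 1 and 3. T2DM against T1DM Ly6C-low MCs changed from 1 to 2 with quantile normalization. The cause was not tested. Tests of diabetic against CT MCs called 0 members under every alternative, but small differences turned their sign. In Ly6C-low MCs, Il3ra was 0.015 with 1 added and Csf1r -0.050 with quantile normalization. Leaving out 1 library gave ranges that cross 0 in Ly6C-high MCs for Csf1r (-0.44 to 0.11), Csf2ra (-0.16 to 0.26), Csf2rb (-0.34 to 0.16), Csf2rb2 (-0.22 to 0.017), Csf3r (-0.18 to 0.52) and Flt3 (-0.25 to 0.25). In Ly6C-low MCs they did for Csf1r (-0.086 to 0.11), Csf2ra (-0.0077 to 0.39), Csf2rb (-0.34 to 0.51), Csf2rb2 (-0.037 to 0.96) and Il3ra (-0.96 to 0.85). For the difference between subsets in diabetic against CT mice they did for Csf1r (-0.45 to 0.10), Csf2ra (-0.35 to 0.067), Csf2rb (-0.60 to 0.25), Csf3r (-0.52 to 0.18) and Il3ra (-1.61 to 0.19).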
